A study of Caenorhabditis elegans with 2 samples.

Results

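Splicing factor genes of Caenorhabditis elegans were examined for peaks of the T-box transcription factor TBX-2. The members are the nuclear protein-coding genes of the WBcel235 annotation whose symbols begin with 1 of 11 prefixes (rsp-, snr-, prp-, rnp-, sfa-, uaf-, hrpa-, hrpf-, hrpk-, hrpr- or snrp-). There were 52 of them among 19973 genes. The symbol rule itself uses no measured value, but the members were chosen with earlier results of these data known. The data are chromatin immunoprecipitation followed by sequencing (ChIP-seq) with an antibody against green fluorescent protein. All samples came from strain OP159, genotype unc-119(ed3) III; wgIs159, in which the integrated array wgIs159 supplies TBX-2 with a GFP-FLAG tag at its C-terminus. Hermaphrodite embryos at the late embryonic stage were taken 3.5 h after bleaching, as 2 biological replicates of whole organisms. There was 1 group, so nothing in these files compares conditions, and a peak in whole embryos does not say in which cells the protein sat. No peak list from an untagged strain was analysed here, and peaks owed to TBX-2 cannot be told apart from peaks that open promoters collect whatever protein is tagged.

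Pre-mRNA splicing removes introns and joins exons. Small nuclear ribonucleoproteins (snRNPs), built on rings of Sm proteins, recognise the splice sites and assemble into the spliceosome, and the PRP proteins help to build, remodel and disassemble it. SR proteins bind exonic sequences and generally promote use of nearby splice sites, while hnRNPs bind nascent transcripts and often oppose or modify that choice. In the nematode the same machinery also carries out trans-splicing, which puts a spliced leader on many messages and separates the genes of an operon, a cluster of same-strand genes transcribed from a promoter at its upstream end.

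Peaks were common at splicing factor genes. Of the 52 genes, 25 had a summit of the optimal set within 1 kb of an annotated 5′ end (48.1%, 95% exact interval 34.0 to 62.4), where 11.5% of all 19973 protein-coding genes had one. The optimal set is the authors' list of 3053 peaks, which they label as thresholded on irreproducibility. A gene with a summit in that window is called here a gene with a peak. The strongest peak at each of the 25 genes had the same rank and signal in this set as in the authors' list of pooled peaks. Presence in the set therefore followed pooled signal, and does not by itself show that a peak was strong in each replicate. By share within a group, SR protein genes (7 of 8) and Sm core genes (6 of 7) stood highest, followed by hnRNP genes (4 of 7) and genes of PRP and snRNP proteins (7 of 21). That order was not firm. At rsp-2, rsp-3, snr-1, snr-2 and snr-3 another gene was nearer to the summit, and shares by role with the nearest end only were not computed. By the 3053 strongest peaks of replicate 2, SR genes had 5 of 8, and Sm and hnRNP genes 4 of 7 each. Among the other rnp- genes 1 of 6 had a peak, and among the genes of the branch point and 3′ splice site factors none of 3 did, a count whose exact interval reaches 70.8%. The intervals cover counting error over genes only. Genes are not independent replicates, and 2 of the peaks each lie near a pair of members, so the 25 genes rest on 23 strongest peaks.

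**Figure D1:**
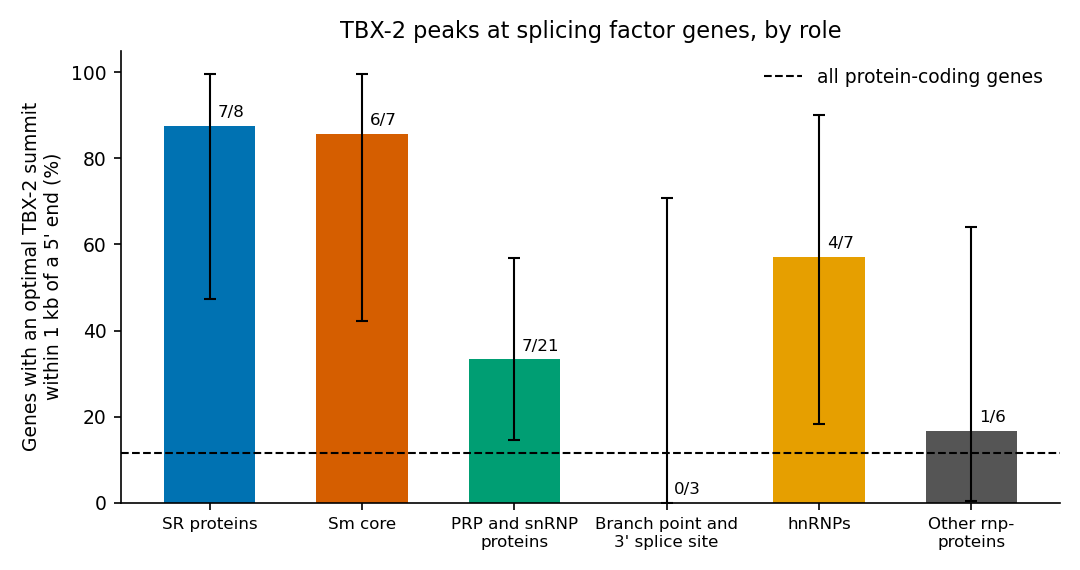
Share of splicing factor genes with an optimal TBX-2 summit within 1 kb of a 5′ end (y axis, percent), by role group (x axis); error bars are 95% exact binomial intervals over genes, numbers give genes with a peak out of all, and the dashed line is the share of all protein-coding genes, 11.5%. SR protein genes (7 of 8) and Sm core genes (6 of 7) stand highest, and the branch point and 3′ splice site group has none of 3.

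The replicates each placed 23 of the 52 genes near one of their own 3053 strongest peaks (44.2%), against 11.2% of all protein-coding genes for replicate 1 and 11.3% for replicate 2. Of the 25 genes with an optimal peak, 19 were in both of these top lists. The 4 found in replicate 1 only were rsp-5, snr-3, rsp-7 and snr-7, and the 2 found in replicate 2 only were rnp-2 and snrp-3. Replicate 2 added uaf-2 and rnp-6, which have no optimal peak.

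The sequences under 6 of these peaks are shown to make the sites concrete: the strongest printed one, the pairs of members that share a promoter, and others that hold a motif discussed further on. Each runs from 50 bases before the summit to 50 bases after it, read from the plus strand of WBcel235, the assembly whose coordinates the ce11 lists use. Capitals mark matches to the searched motifs on either strand.

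snr-1 (chrIV:17087573-17087673): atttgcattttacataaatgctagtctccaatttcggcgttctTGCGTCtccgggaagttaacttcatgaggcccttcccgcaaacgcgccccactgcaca

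rsp-1 and rsp-2 (chrII:11453187-11453287): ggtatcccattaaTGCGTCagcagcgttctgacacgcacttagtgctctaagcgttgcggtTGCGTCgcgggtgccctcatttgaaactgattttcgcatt

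rsp-5 and snr-3 (chrII:6489934-6490034): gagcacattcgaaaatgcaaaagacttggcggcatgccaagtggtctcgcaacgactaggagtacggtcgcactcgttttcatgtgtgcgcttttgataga

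rsp-6 (chrIV:7791338-7791438): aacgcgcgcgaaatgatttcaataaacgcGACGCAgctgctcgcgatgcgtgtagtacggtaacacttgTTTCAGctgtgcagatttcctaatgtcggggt

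rsp-7 (chrII:10658874-10658974): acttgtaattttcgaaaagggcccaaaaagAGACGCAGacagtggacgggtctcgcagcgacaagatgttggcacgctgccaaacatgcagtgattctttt

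prp-8 (chrIII:8163983-8164083): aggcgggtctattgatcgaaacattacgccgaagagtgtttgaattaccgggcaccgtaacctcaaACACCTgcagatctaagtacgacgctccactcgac

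SR protein genes had peaks at all members but rsp-4. Signals below were deposited with each peak by the authors and are comparable within a list, not between the optimal set and a replicate. Distances are from the summit to the nearest annotated 5′ end, negative where upstream. The strongest peak of the group was at rsp-6, which encodes a small SR protein. Its summit lay at -159 bp, with a signal of 198.0 in the optimal set (rank 626), 132 in replicate 1 and 60.3 in replicate 2. A single peak lay between the divergent genes rsp-1 and rsp-2, at -125 bp and -282 bp from their 5′ ends. It had a signal of 188 (rank 699), 116 in replicate 1 and 70.4 in replicate 2, and ranked 577 and 967 in the lists of these replicates. The peak at rsp-8, a relative of the fly splicing regulator Transformer-2, lay at -569 bp with an optimal signal of 112. At rsp-3, the orthologue of human SRSF1 (ASF/SF2), the summit lay at -301 bp with a signal of 100.6, but it was nearer to spin-4, at -95 bp.

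The weaker SR protein peaks differed between the replicates. The peak between rsp-5 and the Sm gene snr-3 had an optimal signal of 85.9 (rank 2815), and ranked 2236 in replicate 1 and 5345 in replicate 2. The peak at rsp-7 had an optimal signal of 83.5 (rank 2932), the lowest of the 25 genes, and ranked 2717 in replicate 1 and 4151 in replicate 2. It lay at -282 bp from rsp-7 and -298 bp from snu-13, which encodes a protein that binds the U4 snRNA. Both sites were thus inside the top list of replicate 1 and outside that of replicate 2. The exception, rsp-4, the orthologue of the SR protein SC35, had an optimal summit farther upstream, at -1257 bp, with a signal of 168 (rank 889). Within 1 kb it had only relaxed peaks near the bottom of the lists, with ranks of 23730 in replicate 1 and 21699 in replicate 2.

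Sm genes, whose products form the ring around each spliceosomal snRNA, had peaks at 6 of 7 members. At snr-1, which encodes SmD3, the peak (chrIV:17087362-17087775) had an optimal signal of 494 (rank 40), with 276 in replicate 1 (rank 45) and 217.0 in replicate 2 (rank 42). Its summit lay at -426 bp from snr-1 and nearer, at -185 bp, to snx-13, a sorting nexin gene on the opposite strand. At snr-2, encoding SmB, the signal was 196 (rank 638) in the optimal set, with ranks of 529 in replicate 1 and 948 in replicate 2. This summit also lay nearer to a divergent neighbour, W08E3.4 (-74 bp), than to snr-2 (-392 bp). The gene of SmD2, snr-4, was the one member with a second optimal summit in the window. The summits lay at -353 bp and -558 bp, with signals of 157 and 89.8, and the stronger one was 42 bp from T11F9.15, a gene annotated as a small nuclear RNA. Which of these genes the peak belongs to was not tested.

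The remaining Sm genes had lower signals. The peak at snr-6, encoding SmE, had a signal of 114 at -249 bp, and that shared by snr-3, encoding SmD1, lay at -223 bp. For snr-7, encoding SmG, the summit was downstream, at 706 bp, and beyond the 3′ end of this short gene. Its signal was 120 in the optimal set, 87.1 in replicate 1 (rank 1098) and 33.5 in replicate 2 (rank 3469), outside the top list of that replicate. The exception was snr-5, which encodes SmF. Its strongest summits within 1 kb ranked 22324 in replicate 1 and 7465 in replicate 2, and lay at different places.

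**Figure D2:**
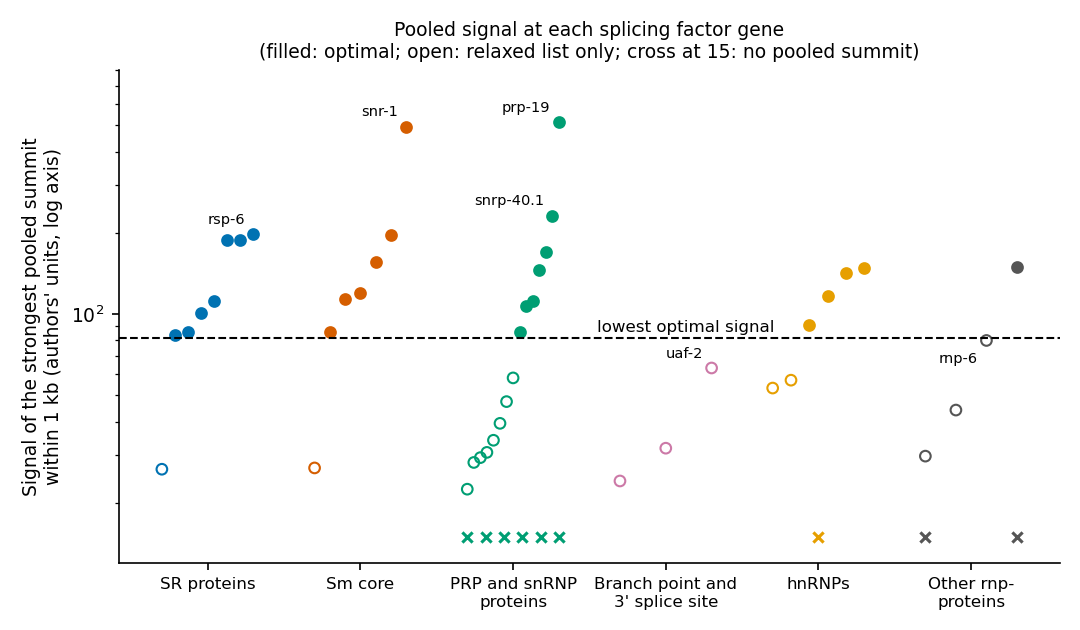
Signal of the strongest pooled-list summit within 1 kb of each of the 52 genes (y axis, authors' units, log scale), by role group (x axis). Filled points are optimal peaks, open points are peaks of the relaxed list only, crosses at an arbitrary height mark the 9 genes with no pooled summit, and the dashed line is the lowest signal of the optimal set, 81.6; prp-19 (515) and snr-1 (494) stand apart from the other genes, and rnp-6 (79.9) lies just under the line.

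Genes of PRP and snRNP proteins had a peak at 7 of 21 members, among them the strongest of all. At prp-19, which encodes the ubiquitin ligase at the centre of the Prp19 complex, the peak (chrIII:5172533-5172835) had an optimal signal of 515. Its rank was 36 among optimal peaks, 36 for replicate 1 and 38 for replicate 2. The summit lay at -632 bp from prp-19, at -43 bp from the divergent gene K10D2.5 and at -762 bp from emb-1. It was 36.3 kb from the summit at the promoter of tbx-2, the tagged gene, where the signal was 606 (rank 20). At snrp-40.1, which encodes a protein of the U5 snRNP, the summit was 1 bp from the 5′ end. This peak had a signal of 231 (rank 423), 135 in replicate 1 (rank 402) and 99.1 in replicate 2 (rank 465). These genes kept similar ranks in both replicates.

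The other 5 peaks of this group lay between -98 bp and -340 bp. At prp-8, encoding the large U5 protein at the catalytic centre, the signal was 170 (rank 872), with ranks of 820 in replicate 1 and 1048 in replicate 2. At prp-40, encoding a protein associated with the U1 snRNP, it was 146, and at prp-21, the SF3A1 orthologue of the U2 snRNP, it was 112. The gene rnp-2, whose product is a protein of the U1 snRNP, had 107, and snrp-3 had 86.2. The last pair fell outside the top list of replicate 1, with ranks of 3104 for rnp-2 and 4003 for snrp-3, and inside that of replicate 2, with 1591 and 2733.

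The 14 members of this group with no peak include genes of many steps of splicing. They are prp-3, prp-4, prp-6 and prp-31 (U4/U6.U5 tri-snRNP), snrp-200 (the Brr2 helicase), snrp-27, snrp-40.2, prp-9 (an SF3A subunit), prp-17 and prp-18 (second catalytic step), prp-38, prp-39, rnp-3 and rnp-7 (the U1-70K orthologue). In the pooled relaxed list 8 of these had a weaker summit within 1 kb, the strongest at prp-9 with a signal of 58.0 at -121 bp, and 6 had none. The prp-9 summit ranked 20865 in replicate 1 and 3253 in replicate 2. The share of all genes without an optimal peak that had a weaker pooled summit was not computed.

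Among hnRNP genes the 4 with a peak were hrpk-1, hrpr-1, hrpf-1 and hrpa-1, each the orthologue of the human hnRNP its symbol names. The hrpk-1 peak had a signal of 148 (rank 1135), with summits 1 bp apart in the replicates. It lay at -132 bp from one 5′ end of the gene and inside an intron of a longer transcript. The hrpr-1 peak had 142 at -548 bp, the hrpf-1 peak 117 at -180 bp and the hrpa-1 peak 91.4 at 12 bp. At hrpa-1 the replicate summits were 125 bp apart, the widest gap among these peaks. All 4 genes were in both top lists, and hrpf-2, hrpa-2 and hrpk-2 had no optimal peak.

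Of the other rnp- genes, rnp-8 had a peak. Its product is known as a partner of the cytoplasmic poly(A) polymerase GLD-2 in the germ line, so the prefix does not make it a splicing factor. The summit lay in an intron of rnp-8, at 767 bp from a 5′ end inside the gene and farther from its outermost 5′ end. Its signal was 150 (rank 1114), with 92.9 in replicate 1 and 54.3 in replicate 2. The genes rnp-4 (Y14) and rnp-5 (RNPS1), both of the exon junction complex, and rnp-6 (PUF60, a U2 auxiliary factor relative), rnp-1 and rnp-9 had none. The branch point protein gene sfa-1 (SF1) and the genes of both U2AF subunits, uaf-1 and uaf-2, had none either.

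Some genes without an optimal peak had weak ones. Within 1 kb, the relaxed list of replicate 1 had a summit for 41 of the 52 genes (78.8%), against 43.9% of all protein-coding genes. For replicate 2 it was 46 of 52 (88.5%) against 43.1%, and for the pooled relaxed list 43 of 52 (82.7%) against 44.5%. These lists hold background as well as peaks, and the genes with an optimal peak are among those counted. Of the 27 genes without an optimal peak, 16 had a summit in both relaxed lists and 6 (prp-4, prp-39, snrp-40.2, rnp-4, rnp-7 and rnp-9) in neither. The same shares over all protein-coding genes without an optimal peak were not computed, so these counts have no comparison.

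The genes nearest to the threshold show how it cuts the group. The lowest optimal signal of the whole set was 81.6. Just inside it were rsp-7 (83.5), the peak of rsp-5 and snr-3 (85.9) and snrp-3 (86.2). Just outside it was rnp-6, with a pooled signal of 79.9 at -118 bp, which ranked 6835 in replicate 1 and 1745 in replicate 2. Next came uaf-2, with 63.2 at -18 bp in the pooled list. Its strongest summits ranked 3577 in replicate 1 and 2690 in replicate 2, but lay at different sites, -664 bp in replicate 1 and -18 bp in replicate 2. By mean rank over the replicates hrpa-2, rnp-6, rnp-5 and hrpf-2 followed uaf-2, at 4289, 4290, 5562 and 5802.

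**Figure D3:**
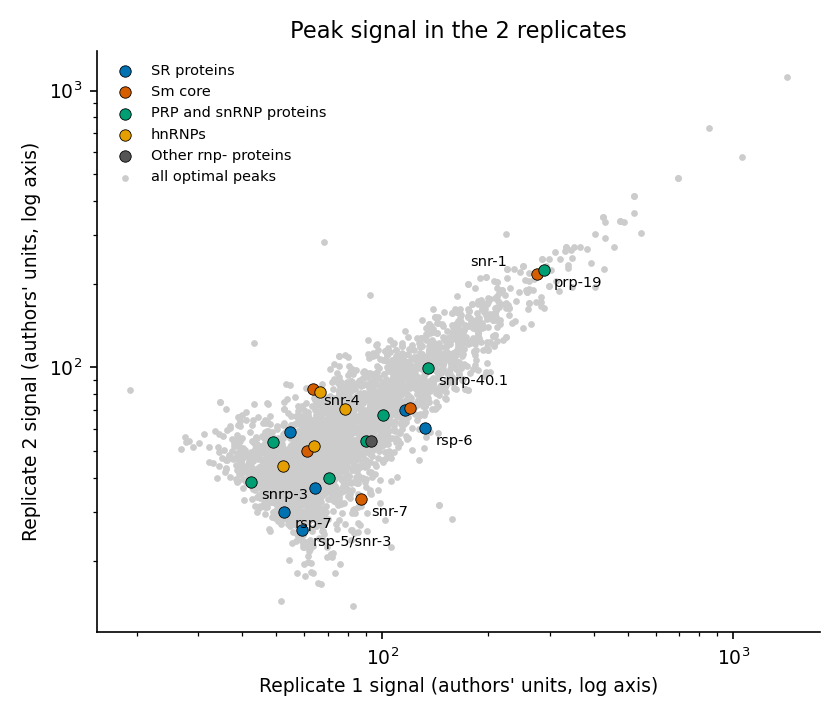
Peak signal in replicate 1 (x axis) and replicate 2 (y axis), both in the authors' units on log scales; grey points are optimal peaks matched in each replicate, and coloured points are the 23 strongest peaks at splicing factor genes, with shared peaks drawn in 1 colour. The peaks at prp-19 and snr-1 are high in both replicates, while rsp-7, snr-7 and the peak of rsp-5 and snr-3 lie low in replicate 2.

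Peak strength at these genes was ordinary for genes with a peak. The median signal was 142 over the 25 splicing factor genes (range 83.5 to 515), against 138 over all 2289 protein-coding genes with a peak. Only prp-19 and snr-1 were among the 100 strongest peaks, and 13 of 25 genes had a peak above the median signal of the optimal set, against 58.1% of all genes with a peak. Across the 23 peaks the replicate signals had a Pearson r of 0.806 on the log2 scale and a Spearman rho of 0.662. These describe peaks that were selected for the optimal set and that share a control file, and peaks are not replicates.

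Summits mostly lay shortly upstream of the gene. The median distance was -202 bp over the 25 genes, with a range of -632 to 767 bp, against a median of -226 bp over all genes with a peak. The summit was upstream in 21 of 25 genes, against 88.5% of all genes with a peak. The exceptions were snrp-40.1 and hrpa-1, within 12 bp of the 5′ end, and snr-7 and rnp-8, far downstream. Of the 23 strongest peaks 19 had intergenic summits, 2 lay in an intron (hrpk-1, rnp-8) and 2 in a 5′ UTR (hrpa-1, snrp-40.1). The replicates put their summits a median of 23 bp apart, and under 50 bp apart at 18 of 23 peaks.

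**Figure D4:**
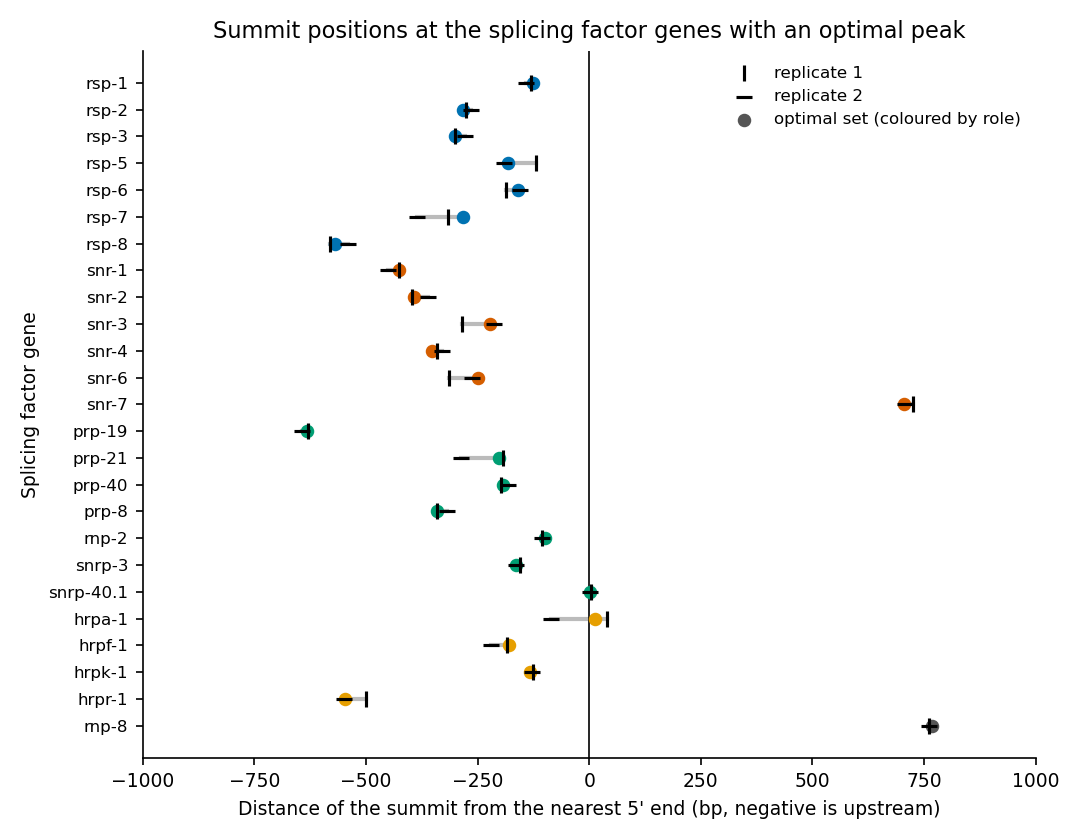
Distance of the summit from the nearest 5′ end (x axis, bp, negative is upstream) at each of the 25 splicing factor genes with an optimal peak (y axis); coloured points are the optimal set, vertical ticks replicate 1 and horizontal ticks replicate 2. In 21 genes the optimal summit is upstream, and the widest gap between replicates is 125 bp, at hrpa-1.

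Many of these peaks also lay near another gene, which need not mean a shared promoter. For 18 of 25 genes the strongest summit was within 1 kb of a 5′ end of another protein-coding gene, against 49.8% of all genes with a peak. In 6 of 25 the other gene was nearer, namely at prp-19, snr-1, snr-2, rsp-3, rsp-2 and snr-3, where the last pair gave way to rsp-1 and rsp-5. The 7 genes whose summit reached no other protein-coding gene were snr-4, rsp-8, hrpk-1, hrpf-1, hrpa-1, rnp-8 and snrp-3. At rsp-6 and hrpr-1 the other gene lay on the same strand, with the summit downstream of its 5′ end. Which of 2 genes near a summit a peak serves cannot be told from these lists.

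The share of genes with a peak varied with gene arrangement in the genome. Among splicing factor genes it varied too, but the intervals of the layouts overlapped. Of the 25 splicing factor genes whose nearest upstream gene lies on the opposite strand within 1 kb, 16 had a peak (64.0%, exact interval 42.5 to 82.0), against 25.4% of all such genes. Of the 14 with a same-strand gene ending within 500 bp upstream, the layout that operons also have, 3 had a peak (21.4%, 4.66 to 50.8), against 6.76% of all such genes. Of the other 13, 6 had one (46.2%, 19.2 to 74.9), against 8.99%. Within each layout the share at splicing factor genes was above that of all genes, and the interval in the same-strand layout included the genome's share. A summit between divergent genes counts for both of them. The genes with another gene nearer to the summit (prp-19, snr-1, snr-2, rsp-3, rsp-2 and snr-3) all have the opposite-strand layout. Shares by layout with the nearest 5′ end only were not computed.

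**Figure D5:**
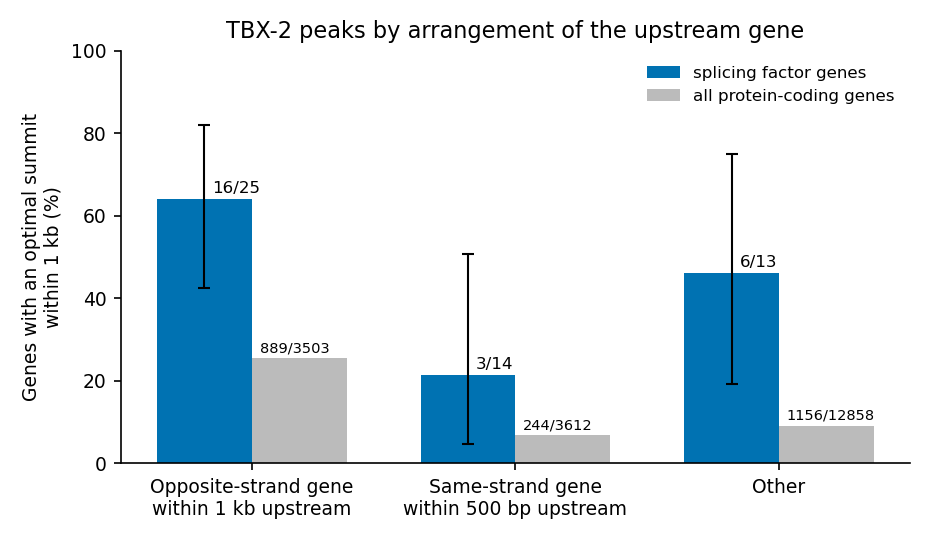
Share of genes with an optimal summit within 1 kb of a 5′ end (y axis, percent) for splicing factor genes (blue, left bars, with 95% exact binomial intervals over genes) and all protein-coding genes (grey, right bars), by the position of the nearest upstream gene (x axis). Shares are 64.0% against 25.4% with an opposite-strand neighbour, 21.4% against 6.76% with a close same-strand neighbour and 46.2% against 8.99% otherwise.

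Several splicing factor genes without a peak followed a gene that had one. Of the 11 same-strand followers without a peak, 6 came directly after a gene with a peak, against 15.9% of all such followers. Of these, rnp-3 began 72 bp after rnp-2, itself a member with a peak at -98 bp. The U1-70K gene rnp-7 began 4 bp after syf-2, a splicing gene with a peak of signal 172 at -370 bp, and prp-38 began 106 bp after plrg-1, which encodes a component of the Prp19 complex and had a signal of 290 (rank 225). The others were prp-39 after hmgs-1 (signal 163), hrpa-2 after H28G03.2 (187) and prp-3 after smrd-1 (138). Whether these neighbours share a transcript was not tested.

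The full T-box site was not found at these summits, and it was rare at all summits. The T-box site GGTGTGA was found within 50 bp of 0 of 24 summits at splicing factor genes, an exact interval that reaches 14.2%, against 1.32% of all 3034 nuclear optimal summits. The shorter GTGTGA, contained in it, was at 0 of 24 against 8.73%, and AGGTGT at 1 of 24 (prp-8) against 4.48%. In windows 500 bp to either side of all summits GGTGTGA was at 0.544%, GTGTGA at 3.82% and AGGTGT at 2.50%. None of them was in the 48 such windows at splicing factor genes. The general promoter motif CTGCGTCT was at 3 of 24 (rsp-7, hrpk-1 and hrpr-1), or 12.5%, against 10.3%, GAGAGAGA at 1 of 24 (hrpa-1) against 8.70%, and GGGCGG at 2 of 24 (prp-19 and hrpr-1) against 7.81%. The splice acceptor letters TTTCAG were at 1 of 24 (rsp-6) against 4.22% of all summits, and in 16 of the 48 windows placed 500 bp to either side (33.3%), against 20.7% of such windows at all summits. All searches covered both strands.

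The core TGCGTC of that promoter motif, chosen after the sequences had been read, was at 8 of 24 summits (33.3%, exact interval 15.6 to 55.3), against 15.2% of all nuclear optimal summits. The interval does not allow for that choice, and the summits with CTGCGTCT (rsp-7, hrpk-1 and hrpr-1) are among the 8. The core was in 1 of the 48 flanking windows and in 2.22% of those of all peaks. The summits were those of snr-1, snr-6, prp-40, rsp-6, rsp-7, hrpk-1, hrpr-1 and the pair rsp-1 and rsp-2, whose window printed above holds it in 2 places. The median GC content within 50 bp of the summit was 48.5% at splicing factor genes and 49.5% at all nuclear summits.

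Peaks were also present at other splicing genes, outside the symbol rule, in lists chosen with earlier results of these data known. Their shares were not tested against that of the 52 genes. In a list of further spliceosome and snRNP assembly genes 21 of 57 had a peak (36.8%, exact interval 24.4 to 50.7), against 11.5% of all protein-coding genes. The strongest were at plrg-1 (signal 290 at -194 bp), mog-3 (272 at -148 bp), cyn-10 (255 at -130 bp) and smu-2 (206 at -12 bp). The list also counts sftb-1, the SF3B1 orthologue (103 at -475 bp), and smn-1, the snRNP assembly gene (84.4 at 59 bp), among those with a peak. In a list of regulators of alternative splicing 8 of 20 had a peak (40.0%, 19.1 to 63.9). Among them were rsr-1, an SR-related protein gene (208 at -468 bp), asd-1, of the RBFOX family (206 at -487 bp), and asd-2, of the STAR family (144 at -139 bp).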

How the data were processed

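Peak lists on the ce11 build were used as deposited by the authors, 1 per replicate (23800 and 23216 peaks), 1 pooled (25747) and the optimal set (3053, of which 3034 are nuclear). Both replicates were called against the same control file, per the deposited file lists; no aligner, peak caller or threshold is given in the sources used here. The depth is unknown. Each peak carries a signal deposited by the authors, used to rank and describe peaks within a list. The ce10 lists were not used. Summits were assigned with Python 3.11.15 (pandas 2.3.3) to every 5′ end within 1 kb in Ensembl release 115; sequence came from the RefSeq copy of WBcel235. The strongest summit stands for a gene, and a replicate's top list is its 3053 strongest peaks. Intervals are Clopper-Pearson (scipy 1.17.1). No test was run. Assignment was tested on simulated data: 138 of 138 planted summits were recovered. Of 65 further spliceosome symbols 8 had no match in the annotation; all 20 regulators were found. Named genes are all members with a peak, members near the threshold, the 4 strongest of each further list (1 is not reported here) and nearer neighbours; members without a peak, sftb-1, smn-1 and the neighbours of same-strand followers were named after their values were seen. The members and lists were chosen with earlier results of these data known, and the gene layouts after the values were seen.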

Additional observations from a re-analysis of the deposited data

How the results depend on the processing

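The count of 25 genes with a peak was 23 with either replicate alone, 20 within 500 bp, 27 within 2 kb, 19 with the nearest 5′ end only, and 19 of 36 without the rnp- and hnRNP prefixes. The share of all protein-coding genes was 8.72% within 500 bp, 15.9% within 2 kb and 8.62% with the nearest end only. With only the outermost 5′ end of each gene the count was 24, against 10.6% of all genes. The count was 13 with the optimal peaks above their median signal, against 6.66% of all genes, and 3 in the 500 strongest, against 2.38%, where fewer peaks are counted. Above that median there were 3 SR, 3 Sm, 2 hnRNP, 4 PRP and snRNP genes and 1 other rnp- gene. SR genes fell to 5 of 8 and Sm genes to 4 of 7 without replicate 1, against 7 and 6 without replicate 2. PRP and snRNP genes had 7 and 5 of 21 in these settings, and hnRNP genes 4 of 7 in each. Without replicate 1 the branch point and 3′ splice site group had 1 gene (uaf-2) and the other rnp- genes 2, against 0 and 1 without replicate 2. Within 500 bp the other rnp- genes had 0. The median distance was -219 bp without replicate 1 and -277 bp without replicate 2. Each median covers the genes near the top list of the replicate that was kept, and these sets of genes differ. The 2 medians therefore do not compare the replicates at the same genes. Within 100 bp of the summit GTGTGA was at 3 of 24 summits, against 15.6% of all summits, and TTTCAG at 4 of 24, against 13.3%, as wider windows hold more sequence. Of 61 recomputed values, 49 stayed within 1.5 times the main count or the spread of the replicates. No paired analysis was possible because there is 1 group.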
